A study of Mus musculus with 20 samples.

Results

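The 10 transporters described here are the main carriers and pumps that move organic anions, drugs, bile pigments and phospholipids across the membranes of mouse hepatocytes. They were chosen by gene name, as the rows of the deposited gene count table for Slco1a1, Slco1a4, Slco1b2, Slco2b1, Abcb1a, Abcb4, Abcc2, Abcg2, Abcc3 and Abcc4. All 10 were among the 56748 genes of the table, and all 10 were among the 15669 genes that passed the filter on low counts and were tested.

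The libraries were made from the livers of mice fasted for 24 h, and the 5 groups held 4 libraries each. Per the labels, the mutant groups had lost, in the liver only, Cpt1a and Cpt1b (Cpt1DKO), Cpt2 (Cpt2KO), all 3 of these genes (TKO), or Cpt2 together with Ppara (Cpt2PparaDKO), and the controls carried the triple floxed alleles (Control). Cpt1a and Cpt1b encode the outer and Cpt2 the inner mitochondrial carnitine palmitoyltransferase, the paired enzymes through which long-chain fatty acids enter mitochondria to be oxidised. Ppara encodes the fatty acid-sensing nuclear receptor that switches on oxidation genes during fasting. The labels name no Cre driver. Each mutant group is compared with one shared set of controls, so line and genotype cannot be told apart.

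Hepatocytes take up organic anions from portal blood through carriers of the Slco (OATP) family on the basolateral membrane. Pumps of the ATP-binding cassette family then export drugs, conjugates and phospholipids across the canalicular membrane into bile, while a separate set returns conjugates and bile acids across the basolateral membrane to blood. In mouse liver several of these genes differ between the sexes, and many respond to the xenobiotic receptors CAR and PXR, to the bile acid receptor FXR and to the oxidative stress factor NRF2.

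Total counts ran from 14129595 to 20273303 in 19 libraries, and Cpt2PparaDKO replicate 1 had 36452673. Levels below are in CPM, the counts brought to one library size by TMM, and fold changes are log2 values from edgeR's quasi-likelihood test on all 20 libraries, called at a Benjamini-Hochberg adjusted p under 0.05 over all genes tested. Of the targeted genes, Cpt1a, Cpt2 and Ppara lay below Control in the groups that the labels give as lacking them, and Cpt1b did not. Cpt1a lay at 146 to 173 CPM in Cpt1DKO and 118 to 145 in TKO, against 939 to 1130 in Control. Cpt2 lay at 114 to 165 CPM in Cpt2KO, 92.4 to 115 in TKO and 28.4 to 39.0 in Cpt2PparaDKO, against 211 to 267 in Control. In Cpt1DKO, where Cpt2 is not targeted, it lay at 147 to 302 CPM and overlapped Cpt2KO. Ppara lay at 54.2 to 83.2 CPM in Cpt2PparaDKO, against 189 to 276 in Control. Cpt1b was scarce in every group (0.619 to 1.11 CPM in Cpt1DKO and 2.38 to 3.03 in TKO, against 0.292 to 0.762 in Control), so its counts do not check the labels. Nothing in the labels states that libraries of a group are separate mice, and the p-values therefore reflect variation among libraries, part of which may be technical.

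The labels give no sex. Among the 20 libraries were 2, written below as the female-pattern libraries, that had high Xist and counts near 0 over 4 Y-linked genes, and the other 18 had the male pattern. They were Cpt2KO replicate 3 (Xist 981 CPM) and Cpt2PparaDKO replicate 4 (Xist 1270 CPM). Transporter results whose call they change are given with and without both or the one concerned.

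The summed level of hepatocyte markers differed between groups. Over 5 measured markers it was 73500 to 81100 CPM in Cpt1DKO, 40000 to 69500 in Cpt2KO, 33100 to 62500 in TKO livers and 30400 to 37400 in Cpt2PparaDKO, against 76700 to 95600 in Control. Against Control 0, 3, 3 and 5 of them were called, all lower, where 5.55%, 33.4%, 27.4% and 32.5% of all genes were called. The 5 became 3 without both female-pattern libraries. In Cpt2PparaDKO against Cpt2KO 1 was called higher and 2 lower, so the markers did not all move together. Their part in the transporter results was not tested. In whole liver fewer hepatocytes, less RNA per hepatocyte and lower expression of single marker genes cannot be told apart. The 6 bile duct markers were scarce, at 18.7 to 26.5 summed CPM in Cpt1DKO, 7.61 to 15.1 in Cpt2KO, 10.8 to 20.5 in TKO livers and 20.3 to 50 in Cpt2PparaDKO, against 29.7 to 35.5 in Control, with Krt19 and Cftr at 0 in some libraries. The 9 macrophage markers summed to 166 to 209, 175 to 342, 142 to 223 and 327 to 387 CPM in these mutant groups, against 142 to 283 in Control, and Gpnmb was at 0 in some libraries. The 7 endothelial markers summed to 288 to 372, 216 to 292, 201 to 313 and 281 to 317 CPM, against 169 to 375 in Control, and the 7 stellate cell markers to 187 to 252, 190 to 258, 169 to 200 and 214 to 238 CPM, against 156 to 170 in Control.

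The per-length levels of the transporters set the uptake carrier Slco1b2 first. In the authors' FPKM, which divide by gene length, Control averaged 239.6 ± 11.1 for Slco1b2, 129 ± 17.1 for Abcc2, 81.0 ± 11.6 for Abcc3, 57.8 ± 4.83 for Abcb4 and 46.4 ± 5.37 for Slco1a1 (SD, n = 4). Slco2b1 followed at 24.5 ± 1.80, Slco1a4 at 19.9 ± 2.60 and Abcg2 at 10.4 ± 0.931 FPKM. Abcb1a and Abcc4 were lowest, at 0.884 ± 0.352 and 0.558 ± 0.162 FPKM. The ratio of the highest to the lowest group mean in CPM was 6.81 for Slco1a4 and 6.23 for Slco1a1, 3.38 for Abcc4, 2.82 for Abcg2 and 2.48 for Slco1b2, and below 2 for Abcb1a, Abcb4, Abcc2, Slco2b1 and Abcc3. Between groups next to each other in a gene's order of means, the libraries overlapped in 37 of 40 cases. The 3 steps without overlap were Slco1a4 between Cpt2PparaDKO and Cpt1DKO, Slco1b2 between Cpt1DKO and Control, and Abcg2 between Cpt2PparaDKO and Control. Without both female-pattern libraries 35 of 40 overlapped. The steps then added were Slco1a1 between Cpt2PparaDKO and Cpt1DKO and Slco1a4 between Control and Cpt2KO. The share of such steps over all genes was not computed.

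Added up by role, the uptake sum was lower in every mutant group than in Control. Not each carrier was, since mean Slco1a4 was 149 CPM in Cpt1DKO and 236 in Cpt2PparaDKO, against 130 in Control. The mean canalicular sum went either way, and the mean basolateral sum was above Control in every mutant group, with overlapping libraries. The 4 uptake carriers summed to 231 ± 44.8 FPKM in Cpt1DKO, 139.7 ± 38.9 in Cpt2KO, 159 ± 8.72 in TKO livers and 203 ± 93.3 in Cpt2PparaDKO, against 330.4 ± 14.1 in Control (SD, n = 4). Every mutant library lay below the lowest Control library, although the highest Cpt2PparaDKO library, at 311.2 FPKM, all but reached it at 311.5. The 4 canalicular pumps summed to 189.6 ± 15.7, 214 ± 45.1, 214 ± 22.4 and 153 ± 29.9 FPKM in these mutant groups, against 198 ± 21.7 in Control, and the 2 basolateral pumps to 88.5 ± 12.9, 92.5 ± 21.5, 95.8 ± 18.0 and 98.5 ± 19.3 FPKM, against 81.5 ± 11.5 in Control. Uptake carriers thus made up 45.1 ± 2.44%, 31.1 ± 6.40%, 34.0 ± 1.98% and 43.2 ± 11.4% of the summed level of all 10 genes in Cpt1DKO, Cpt2KO, TKO and Cpt2PparaDKO, against 54.3 ± 2.88% in Control. Without its female-pattern library Cpt2PparaDKO stood at 48.9 ± 2.02% (n = 3), and Cpt2KO without its own at 30.4 ± 7.62% (n = 3). Slco1b2 supplied 59.0% of the uptake sum in Cpt2PparaDKO and 69.9% to 75.2% in the other mutant groups, against 72.5% in Control. These sums are descriptions, with no test, since Slco1b2 and Abcc2 weigh most in them.

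**Figure D1:**
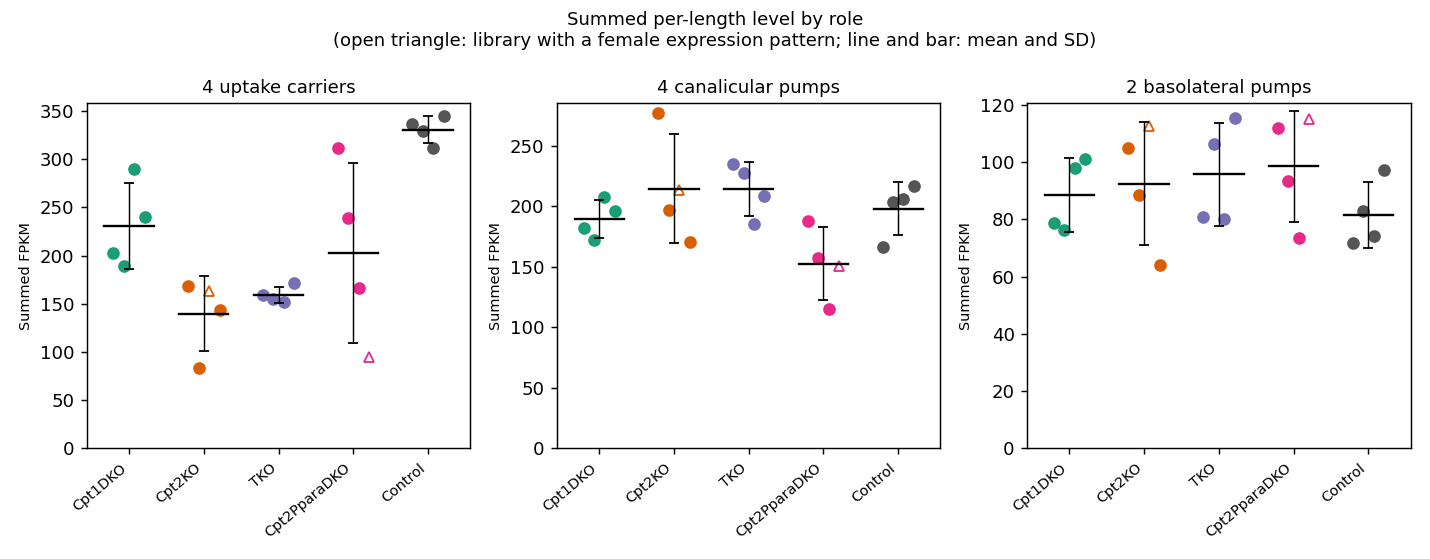
Summed FPKM (y axis, linear) of the 4 uptake carriers, the 4 canalicular pumps and the 2 basolateral pumps in each library, by group (x axis), with the mean and SD of 4 libraries as line and bar. All mutant libraries lie below the 311.5 FPKM of the lowest Control library for uptake, whereas the efflux sums overlap between most groups.

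Against Control, members were called in 3 of the 4 mutant groups, at shares near the background of all genes. In Cpt2KO 3 of 10 were called, Slco1a1 and Slco1b2 lower and Abcb4 higher, where 33.4% of all genes were called. In TKO 3 of 10 were called, Slco1a1, Slco1a4 and Slco1b2, all lower, where 27.4% of all genes were called. In Cpt2PparaDKO 3 of 10 were called, Slco1b2 and Abcg2 lower and Abcc4 higher, where 32.5% of all genes were called. In Cpt1DKO edgeR called 0 of 10, where 5.55% of all genes were called. There 2 members, Slco1a1 and Abcb4, had an unadjusted p under 0.05, and DESeq2 also called 0. The members' median log2 fold changes against Control were -0.0029 in Cpt1DKO, -0.05 in Cpt2KO, 0.07 in TKO livers and -0.29 in Cpt2PparaDKO, and those of all genes -0.0086, -0.0073, -0.0062 and 0.00019 in the same comparisons. The libraries of the 2 groups did not overlap for 3, 3, 4 and 5 of 10 members in these comparisons, against 16.9%, 30.9%, 33.3% and 35.1% of all genes.

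Between mutant groups, most calls fell to the comparison that adds the loss of Ppara to that of Cpt2. In Cpt2PparaDKO against Cpt2KO 4 of 10 members were called, Slco1a1 and Abcc4 higher and Abcb4 and Abcg2 lower, where 24.4% of all genes were called. In TKO against Cpt1DKO 1 of 10 was called, Slco1a4, where 4.65% of all genes were called. Cpt2KO against Cpt1DKO gave 0 calls by edgeR and by DESeq2, with 1 member at an unadjusted p under 0.05, where 14.1% of all genes were called. TKO against Cpt2KO gave 0 calls by both tools, with 1 member at an unadjusted p under 0.05, where 0.0511% of all genes were called. The interaction asks whether the effect of losing Cpt2 differed between livers without and with Cpt1a and Cpt1b. It gave 0 calls, with 3 members at an unadjusted p under 0.05 and 1 call by DESeq2 (Abcb4), where 2.7% of all genes were called. The libraries of the 2 groups did not overlap for 1, 1, 0 and 3 of 10 members in Cpt2KO against Cpt1DKO, TKO against Cpt1DKO, TKO against Cpt2KO and Cpt2PparaDKO against Cpt2KO, against 15.9%, 13.9%, 4.79% and 22.6% of all genes. Comparisons with Control share the same 4 Control libraries, and those with Cpt2KO the same 4 Cpt2KO libraries.

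**Figure D2:**
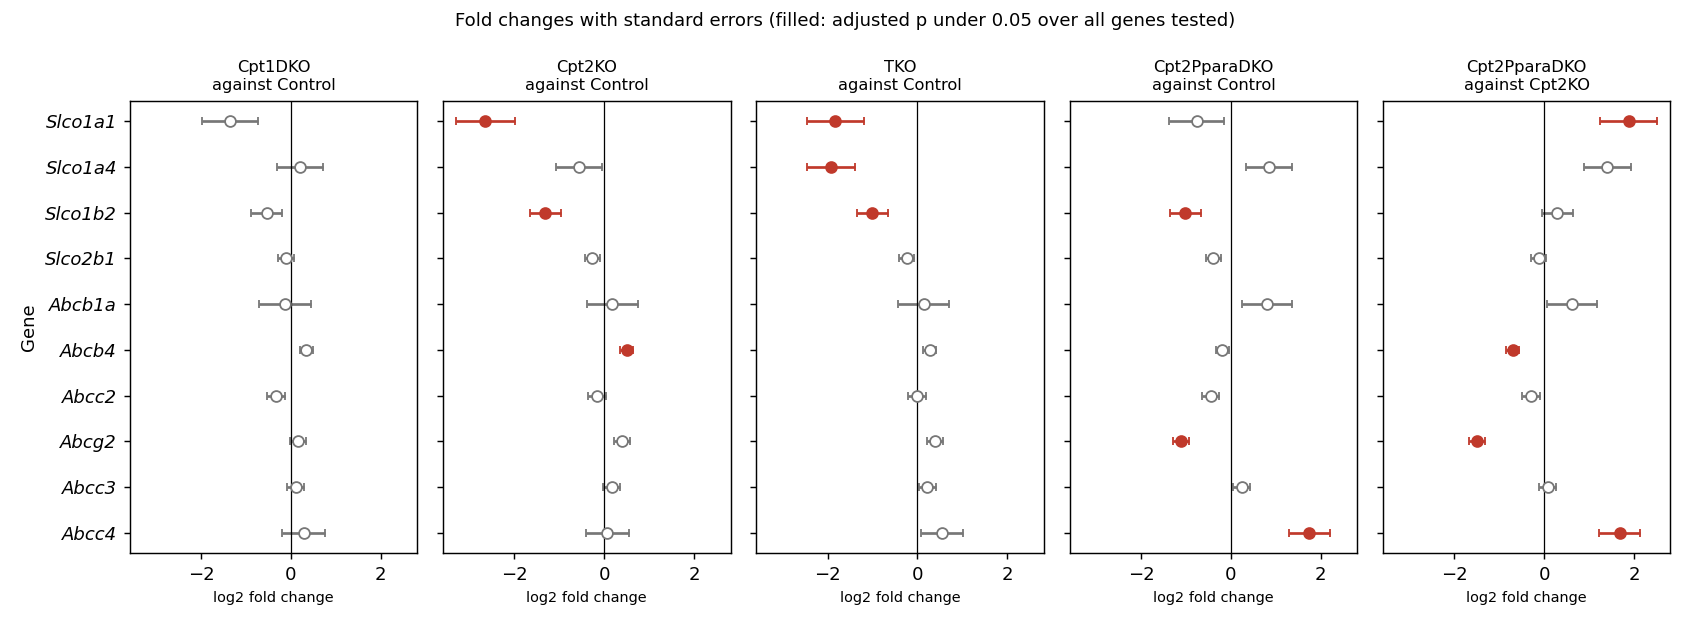
Log2 fold change with its standard error (x axis) for each of the 10 genes (y axis) in the 4 comparisons with Control and in Cpt2PparaDKO against Cpt2KO, where filled points passed an adjusted p of 0.05. Slco1a1 and Slco1b2 were lower in Cpt2KO and TKO livers, Abcg2 was lower in Cpt2PparaDKO in both comparisons, and Abcc2, Abcc3, Slco2b1 and Abcb1a passed in none of them.

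Among the uptake carriers, Slco1a1 encodes a carrier of sulfated and glucuronidated steroids and other organic anions. It is known as a male-predominant gene of mouse liver. With all libraries it was called lower than Control in Cpt2KO and TKO livers, and every Cpt1DKO library also lay below Control. On GRCm39 it lies on chromosome 6 from 141853008 to 141892688, minus strand (ENSMUSG00000041698). The CPM of replicates 1 to 4 were 75.9, 81.4, 135 and 99.1 in Cpt1DKO, 46.8, 13.4, 32.7 and 66.9 in Cpt2KO, 53.8, 103, 77.3 and 46.7 in TKO livers and 249, 189, 142 and 9.93 in Cpt2PparaDKO, against 278, 261, 209 and 249 in Control. Every Cpt1DKO, Cpt2KO and TKO library lay below every Control library, while Cpt2PparaDKO overlapped Control and held the lowest library of all, its female-pattern one. The log2 fold change was -2.64 (SE 0.65, adjusted p = 0.00522) in Cpt2KO and -1.83 (SE 0.63, adjusted p = 0.0419) in TKO against Control, and 1.89 (SE 0.64, adjusted p = 0.0403) in Cpt2PparaDKO against Cpt2KO. The Cpt2KO call held when any 1 library was left out (adjusted p up to 0.0180). The TKO call was lost in 7 of 8 such fits (adjusted p up to 0.110) and the Cpt2PparaDKO call against Cpt2KO in 6 of 8 (adjusted p up to 0.124). Without Cpt2PparaDKO replicate 4, the female-pattern library, the value against Cpt2KO was 2.29 (SE 0.40, adjusted p = 0.000643), and without both female-pattern libraries 2.21 (SE 0.45, adjusted p = 0.00261). Without both, the TKO value against Control was -1.82 (SE 0.39, adjusted p = 0.00221).

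In Cpt1DKO the value for Slco1a1 was -1.35 (SE 0.62, adjusted p = 0.225), with all 4 libraries below Control. Fitted on Cpt1DKO and Control alone, it was called lower, at -1.33 (SE 0.17, adjusted p = 0.00215). The authors' deposited table also called it lower there (adjusted p = 7.64e-11). Without both female-pattern libraries, neither of which is in that comparison, the log2 fold change was -1.35 and the adjusted p 0.0381; the fit shares a single spread estimate per gene over all groups. For Slco1a1, TKO against Cpt1DKO gave -0.48 (SE 0.62, adjusted p = 0.734), with overlapping libraries. The interaction for Slco1a1 was 2.16 (SE 0.88, adjusted p = 0.203), and 2.07 (SE 0.57, adjusted p = 0.0447) without both female-pattern libraries. Without its female-pattern library Cpt2PparaDKO averaged 194 ± 53.8 CPM (SD, n = 3), and the mean with it was 148 ± 102 (SD, n = 4).

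Slco1a4, in the same gene cluster (GRCm39 chromosome 6, 141751166 to 141801925, minus strand, ENSMUSG00000030237), encodes a carrier of cardiac glycosides and bile acids that is known in mouse liver as inducible through PXR and as female-predominant. Its lowest group was TKO and its highest Cpt2PparaDKO. In order of replicate its CPM were 144, 196, 150.0 and 107 in Cpt1DKO, 37.7, 25.5, 229 and 63.4 in Cpt2KO, 23.5, 64.9, 28.4 and 21.7 in TKO livers and 244, 220.3, 209 and 269 in Cpt2PparaDKO, against 151, 135, 124 and 110.3 in Control. All TKO libraries lay below all Control libraries, all Cpt2PparaDKO libraries above them, and in Cpt2KO the female-pattern library stood alone above Control while the other 3 were below it. Against Control the log2 fold change was -1.92 (SE 0.53, adjusted p = 0.0131) in TKO, a call that held in all 8 fits without 1 library, and 0.86 (SE 0.51, adjusted p = 0.219) in Cpt2PparaDKO. Fitted on Cpt2PparaDKO and Control alone, the Cpt2PparaDKO value was called higher, at 0.89 (SE 0.13, adjusted p = 0.000991), and the authors' deposited table also called it higher, at 0.88 (adjusted p = 1.02e-08). TKO against Cpt1DKO gave -2.11 (SE 0.54, adjusted p = 0.0339), lost in 7 of 8 such fits (adjusted p up to 0.114).

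For Cpt2KO, 1 library decided the Slco1a4 result. With all libraries the log2 fold change was -0.55 (SE 0.51, adjusted p = 0.453) against Control, -0.75 (SE 0.52, adjusted p = 0.367) against Cpt1DKO, and 1.41 (SE 0.52, adjusted p = 0.0596) for Cpt2PparaDKO against Cpt2KO. Without Cpt2KO replicate 3, the female-pattern library, these became -1.60 (SE 0.36, adjusted p = 0.00237), -1.82 (SE 0.36, adjusted p = 0.00323) and 2.48 (SE 0.37, adjusted p = 0.000132). The means without it were 42.2 ± 19.3 CPM in Cpt2KO (n = 3), 34.6 ± 20.4 in TKO and 130.3 ± 17.3 in Control (SD, n = 4 each for TKO and Control). Without both female-pattern libraries the Cpt2KO value against Control was -1.62 (SE 0.37, adjusted p = 0.00304).

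Slco1b2 encodes the mouse counterpart of the human OATP1B carriers, which take up bile acids, bilirubin, statins and hepatic toxins such as phalloidin. It lies in the same cluster (GRCm39 chromosome 6, 141575244 to 141632372, plus strand, ENSMUSG00000030236). The CPM of replicates 1 to 4 were 714, 614, 1082 and 911 in Cpt1DKO, 682, 277, 484 and 496 in Cpt2KO, 622, 502, 562 and 704 in TKO livers and 1015, 729, 435 and 199.6 in Cpt2PparaDKO, against 1199.6, 1194, 1142 and 1275 in Control. Control was the tightest group, and all 16 mutant libraries lay below it. The log2 fold change against Control was -1.31 (SE 0.35, adjusted p = 0.00663) in Cpt2KO, -1.01 (SE 0.34, adjusted p = 0.0356) in TKO and -1.02 (SE 0.34, adjusted p = 0.0300) in Cpt2PparaDKO. The Cpt2KO call held in all 8 fits without 1 library, the TKO call in 0 of 8 (adjusted p 0.0533 to 0.0914) and the Cpt2PparaDKO call in 2 of 8. Without both female-pattern libraries the Cpt2PparaDKO value was -0.70 (SE 0.28, adjusted p = 0.0651). In Cpt2PparaDKO the libraries spread 5.09 times between lowest and highest, and the female-pattern library was the lowest.

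Slco2b1 encodes a carrier of sulfated steroids and of several drugs (GRCm39 chromosome 7, 99307011 to 99360547, minus strand). Its CPM by replicate were 132, 113, 157 and 148 in Cpt1DKO, 102, 125, 147 and 123 in Cpt2KO, 123, 142, 123 and 115 in TKO livers and 139, 138, 113 and 66.6 in Cpt2PparaDKO, against 139, 141, 154 and 161 in Control. Cpt2PparaDKO lay wholly below Control by a narrow margin, and the other groups overlapped it. The means were 114 ± 33.8 CPM in Cpt2PparaDKO, against 149 ± 10.5 in Control (SD, n = 4). It was called in no comparison with all libraries. Without both female-pattern libraries it was lower in Cpt2KO than in Control, at -0.34 (SE 0.13, adjusted p = 0.0404).

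**Figure D3:**
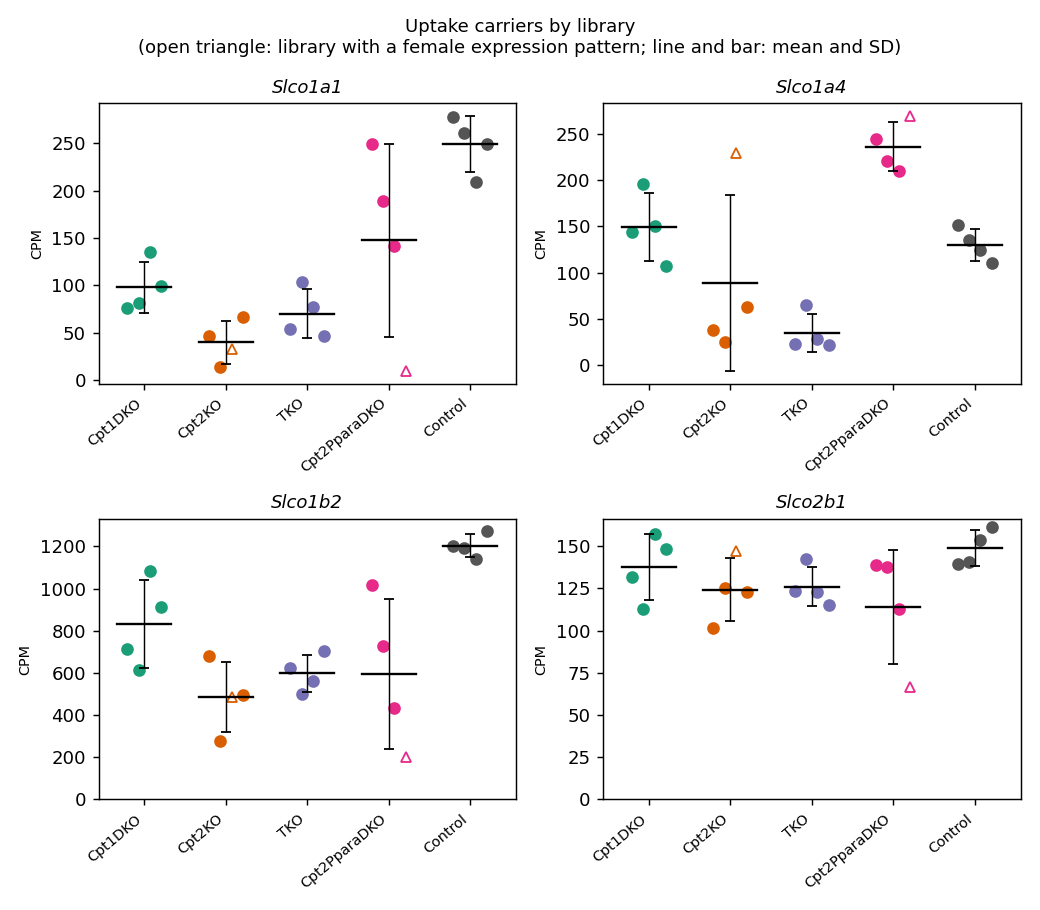
CPM (y axis, linear) of the 4 uptake carriers in each library, by group (x axis), with the mean and SD of 4 libraries as line and bar and open triangles for the female-pattern libraries. The triangle of Cpt2KO lies at 229 CPM for Slco1a4, apart from the other 3 libraries of its group at 25.5 to 63.4, and that of Cpt2PparaDKO is the lowest of its group for Slco1a1, Slco1b2 and Slco2b1.

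The promoters of these 3 clustered carriers are shown because the genes lie close together and yet differed in their order of groups. Each run covers 250 bases before to 50 after the annotated start, from RefSeq on build GRCm38.p6 rather than the GRCm39 of the count table, 5′ to 3′ on the gene's strand. Capitals mark the nuclear receptor hexamer AGGTCA, searched on both strands (TGACCT is its reverse complement), and the Slco1a4 run held none.
Slco1a1, chr6:141946913-141947212, minus strand: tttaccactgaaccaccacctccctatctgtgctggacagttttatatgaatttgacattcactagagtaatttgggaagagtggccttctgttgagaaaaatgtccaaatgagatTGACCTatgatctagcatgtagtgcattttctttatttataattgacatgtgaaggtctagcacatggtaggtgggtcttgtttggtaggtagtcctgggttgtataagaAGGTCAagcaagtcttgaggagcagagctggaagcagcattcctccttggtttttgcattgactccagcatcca
Slco1a4, chr6:141856171-141856470, minus strand: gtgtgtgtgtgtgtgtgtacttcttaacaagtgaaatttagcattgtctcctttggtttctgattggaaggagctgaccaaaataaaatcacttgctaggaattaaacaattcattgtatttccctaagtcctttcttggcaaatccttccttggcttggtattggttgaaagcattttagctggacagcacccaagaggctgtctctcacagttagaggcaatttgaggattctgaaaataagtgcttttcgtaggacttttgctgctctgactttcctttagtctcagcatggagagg
Slco1b2, chr6:141629268-141629567, plus strand: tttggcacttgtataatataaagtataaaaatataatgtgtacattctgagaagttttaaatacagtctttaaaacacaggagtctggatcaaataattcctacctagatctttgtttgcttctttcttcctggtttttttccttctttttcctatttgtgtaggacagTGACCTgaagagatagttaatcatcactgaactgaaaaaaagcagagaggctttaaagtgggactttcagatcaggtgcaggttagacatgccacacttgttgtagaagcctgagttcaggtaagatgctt
Relative to the start the matches began at -134 and -24 in Slco1a1 and at -81 in Slco1b2. Of 14 windows for 9 members (Abcc3 had no row), 5 held this hexamer, and so did 16.3% of 32851 promoters of the same length. A direct repeat of the hexamer with 1 base between was in 0 of the 14 windows and in 0.381% of all promoters, and the HNF1 core motif was in 0 of 14 and in 0.399%. A match is a description of the letters and not a measured binding site.

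Among the canalicular pumps, Abcg2, which encodes the breast cancer resistance protein that exports sulfate conjugates, urate and porphyrins, was lower in the livers that had lost Ppara. It lies on chromosome 6 from 58561508 to 58672661, plus strand, on GRCm39 (ENSMUSG00000029802). Its CPM, replicates 1 to 4, were 86.0, 81.9, 113 and 103 in Cpt1DKO, 118, 107, 90.1 and 136 in Cpt2KO, 119.6, 124, 102 and 104 in TKO livers and 53.5, 46.5, 34.5 and 25.9 in Cpt2PparaDKO, against 80.8, 94.0, 78.1 and 91.4 in Control. All 4 Cpt2PparaDKO libraries lay below all 16 others. The log2 fold change in Cpt2PparaDKO was -1.10 (SE 0.18, adjusted p = 9.13e-05) against Control and -1.49 (SE 0.18, adjusted p = 2.5e-06) against Cpt2KO. Both calls held in all 8 fits without 1 library (-1.25 to -0.91 against Control and -1.66 to -1.32 against Cpt2KO). In the groups that kept Ppara the values against Control were 0.39 (SE 0.17, adjusted p = 0.0915) in Cpt2KO and 0.38 (SE 0.17, adjusted p = 0.109) in TKO. Without both female-pattern libraries these were 0.50 (SE 0.14, adjusted p = 0.00956) and 0.39 (SE 0.13, adjusted p = 0.0295). With only the groups compared in the fit both were called, at 0.43 (SE 0.14, adjusted p = 0.0353) and 0.41 (SE 0.099, adjusted p = 0.00744). The authors' deposited tables also called both higher (adjusted p = 0.0411 and 0.00382). The mean without its female-pattern library was 44.8 ± 9.61 CPM in Cpt2PparaDKO (n = 3), against 86.1 ± 7.80 in Control (SD, n = 4).

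Abcg2 had the smallest adjusted p among the members, and 2 of its 3 RefSeq promoter windows on GRCm38.p6 held the hexamer AGGTCA, in capitals.
Abcg2, chr6:58584283-58584582, plus strand: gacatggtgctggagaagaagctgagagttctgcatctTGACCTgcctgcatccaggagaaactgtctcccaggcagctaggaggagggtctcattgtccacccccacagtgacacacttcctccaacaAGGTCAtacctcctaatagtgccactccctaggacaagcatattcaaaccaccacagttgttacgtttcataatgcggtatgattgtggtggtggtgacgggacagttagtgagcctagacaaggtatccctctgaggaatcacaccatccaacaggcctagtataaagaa
Abcg2, chr6:58640296-58640595, plus strand: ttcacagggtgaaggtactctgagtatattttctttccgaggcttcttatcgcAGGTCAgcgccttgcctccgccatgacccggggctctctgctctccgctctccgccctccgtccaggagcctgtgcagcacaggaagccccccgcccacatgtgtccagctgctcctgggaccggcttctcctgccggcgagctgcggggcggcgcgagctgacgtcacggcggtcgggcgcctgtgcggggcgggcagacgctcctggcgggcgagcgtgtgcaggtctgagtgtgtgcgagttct
The matches began at -212 and -121 relative to the start in the first window and at -197 in the second. Which of the 3 starts the livers used was not measured.

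Abcb4, which encodes the flippase that supplies phosphatidylcholine to bile, was higher in Cpt2KO than in Control livers and lower in Cpt2PparaDKO than in Cpt2KO livers. It lies on chromosome 5 from 8943717 to 9009231, plus strand, on GRCm39 (ENSMUSG00000042476). Replicates 1 to 4 had CPM of 717, 641, 697 and 739 in Cpt1DKO, 922, 842, 779 and 598 in Cpt2KO, 589, 716, 663 and 704 in TKO livers and 588, 499, 380.0 and 464 in Cpt2PparaDKO, against 497, 584, 533 and 595 in Control. All Cpt1DKO and Cpt2KO libraries lay above all Control libraries, and all Cpt2PparaDKO libraries lay below all Cpt2KO libraries. The log2 fold change was 0.51 (SE 0.14, adjusted p = 0.00964) in Cpt2KO against Control and -0.70 (SE 0.15, adjusted p = 0.00122) in Cpt2PparaDKO against Cpt2KO. Both calls held in all 8 fits without 1 library. In Cpt1DKO the value against Control was 0.34 (SE 0.14, adjusted p = 0.175), and in Cpt2PparaDKO the mean was 483 ± 86.1 CPM, against 552 ± 45.9 in Control (SD, n = 4), with no call. The interaction was -0.57 (SE 0.20, adjusted p = 0.133), and -0.59 (SE 0.20, adjusted p = 0.0436) in DESeq2.

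Abcc2, which encodes the pump for glucuronide and glutathione conjugates, bilirubin glucuronides among them, was called in no comparison under any setting. It lies on chromosome 19 from 43770631 to 43829179, plus strand, on GRCm39. Its CPM of replicates 1 to 4 were 809, 792, 1049 and 925 in Cpt1DKO, 1416, 797, 1018 and 770.2 in Cpt2KO, 1357, 1159.7, 886 and 1055 in TKO livers and 1022, 851, 596 and 810.1 in Cpt2PparaDKO, against 909, 1134, 1209.9 and 1227 in Control. Every mutant group overlapped Control.

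Abcb1a, which encodes a P-glycoprotein that exports hydrophobic drugs, was scarce and was also called in no comparison under any setting. It lies on chromosome 5 from 8710077 to 8798575, plus strand, on GRCm39, and shares sequence with its paralog Abcb1b, so the split of reads between them is uncertain. The CPM of replicates 1 to 4 were 3.44, 6.80, 4.31 and 3.55 in Cpt1DKO, 3.58, 4.58, 10.8 and 3.40 in Cpt2KO, 5.82, 7.95, 4.20 and 3.89 in TKO livers and 4.47, 3.34, 3.60 and 23.1 in Cpt2PparaDKO, against 3.04, 4.59, 4.44 and 7.67 in Control. Its highest library in Cpt2KO and in Cpt2PparaDKO was the female-pattern one. Without these the means were 3.85 ± 0.637 CPM in Cpt2KO and 3.80 ± 0.591 in Cpt2PparaDKO (n = 3 each), against 4.93 ± 1.95 in Control (SD, n = 4).

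**Figure D4:**
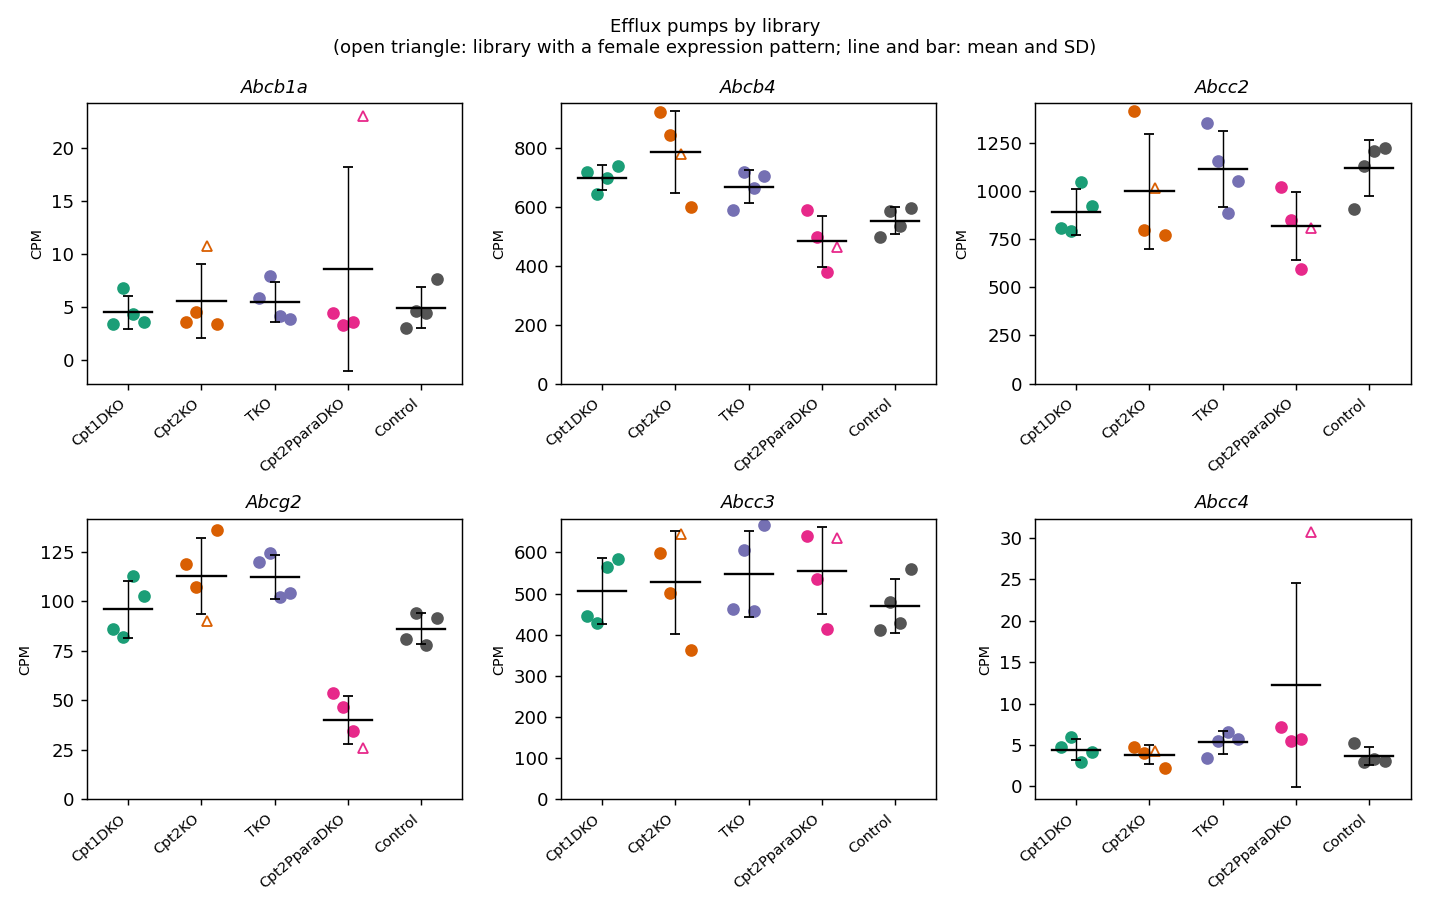
CPM (y axis, linear) of the 6 efflux pumps in each library, by group (x axis), with the mean and SD of 4 libraries as line and bar and open triangles for the female-pattern libraries. All 4 Cpt2PparaDKO libraries lie lowest for Abcg2, and its triangle stands alone at 23.1 CPM for Abcb1a and at 30.7 CPM for Abcc4.

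Of the basolateral pumps, Abcc4, which exports cyclic nucleotides, drugs and, together with glutathione, bile acids to blood, was higher in the Cpt2PparaDKO livers. It lies on chromosome 14 from 118720104 to 118943631, minus strand, on GRCm39 (ENSMUSG00000032849). Replicates 1 to 4 had CPM of 4.70, 5.95, 2.95 and 4.17 in Cpt1DKO, 4.79, 4.05, 4.24 and 2.25 in Cpt2KO, 3.39, 5.53, 6.58 and 5.72 in TKO livers and 7.15, 5.53, 5.70 and 30.7 in Cpt2PparaDKO, against 5.20, 2.90, 3.33 and 3.10 in Control. All Cpt2PparaDKO libraries lay above all Control and all Cpt2KO libraries, and the female-pattern library stood far above the other 3. The log2 fold change was 1.75 (SE 0.46, adjusted p = 0.00750) against Control and 1.68 (SE 0.46, adjusted p = 0.0123) against Cpt2KO. Without that library the value was 0.78 (SE 0.28, adjusted p = 0.0426) against Control, and 0.70 (SE 0.28, adjusted p = 0.0691) against Cpt2KO, where the call was lost. The mean without it was 6.13 ± 0.891 CPM in Cpt2PparaDKO (n = 3), against 3.63 ± 1.06 in Control (SD, n = 4).

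Both RefSeq promoter windows of Abcc4 on GRCm38.p6 held the core of the antioxidant response element, TGACNNNGC, in capitals.
Abcc4, chr14:118676882-118677181, minus strand: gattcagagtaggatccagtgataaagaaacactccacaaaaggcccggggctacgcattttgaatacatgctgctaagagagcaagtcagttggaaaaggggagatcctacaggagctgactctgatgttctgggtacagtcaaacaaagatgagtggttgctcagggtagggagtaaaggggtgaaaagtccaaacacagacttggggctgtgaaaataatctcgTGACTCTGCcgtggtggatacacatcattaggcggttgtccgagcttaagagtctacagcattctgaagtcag
Abcc4, chr14:118706170-118706469, minus strand: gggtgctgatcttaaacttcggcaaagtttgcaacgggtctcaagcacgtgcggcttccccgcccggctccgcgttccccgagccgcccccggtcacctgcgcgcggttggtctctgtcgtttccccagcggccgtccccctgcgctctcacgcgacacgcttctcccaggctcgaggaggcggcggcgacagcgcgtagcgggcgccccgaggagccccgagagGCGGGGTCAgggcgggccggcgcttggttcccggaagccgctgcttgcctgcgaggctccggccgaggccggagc
They began at -23 and -25 relative to the start, the second on the opposite strand. The core was in 4 of the 14 member windows, those of Abcb1a and Abcc2 being the others, and in 12.4% of all promoters.

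Abcc3, which returns glucuronides to blood, was called in no comparison under any setting. It lies on chromosome 11 from 94234121 to 94283823, minus strand, on GRCm39. Its CPM of replicates 1 to 4 were 446, 429, 565 and 585 in Cpt1DKO, 599, 502, 644 and 363 in Cpt2KO, 464, 605, 458 and 665 in TKO livers and 639, 534, 414 and 636 in Cpt2PparaDKO, against 412, 480.2, 427 and 559.7 in Control. Its group means spanned a ratio of 1.18, the narrowest of the 10 genes.

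The female-pattern libraries departed from the other 3 of their groups in several of the 10 genes. In both groups the female-pattern library lay above the other 3 for Slco1a4, at 5.42 times their mean in Cpt2KO and 1.20 times in Cpt2PparaDKO, and for Abcb1a, at 2.79 and 6.06 times. In both it lay below them for Abcg2, at 0.748 times in Cpt2KO and 0.578 times in Cpt2PparaDKO. Abcc4 was at 1.15 times the mean of the others in Cpt2KO, within their range, and at 5.02 times in Cpt2PparaDKO. Slco1a1 was at 0.772 times in Cpt2KO, within the range, and at 0.0513 times in Cpt2PparaDKO. Slco2b1 went opposite ways, above the others at 1.26 times in Cpt2KO and below them at 0.514 times in Cpt2PparaDKO. Slco1b2 was at 0.999 times in Cpt2KO, within the range, and at 0.275 times, below the others, in Cpt2PparaDKO. Abcc3 lay above the others in Cpt2KO, at 1.32 times, and within their range in Cpt2PparaDKO, and Abcb4 and Abcc2 lay within the range in both groups. With 1 such library per group these ratios have no replicate check.

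At an adjusted p under 0.05 in the authors' deposited tables of their own comparisons, 69 of 80 gene-by-comparison outcomes, called or not, matched those given here. Most of these 69 were called in neither. Another 8 were called in the tables only and 3 here only, and 0 had opposite directions. In Cpt1DKO against Control the authors' deposited table called Slco1a1 and Slco1b2 lower and Abcb4 higher, where edgeR called 0. Also called in the tables only, against Control, were Abcg2 higher in Cpt2KO and TKO, Abcb4 higher in TKO and Slco1a4 higher in Cpt2PparaDKO. The last was Slco1b2, lower in Cpt2KO against Cpt1DKO. The authors' deposited tables did not call Abcc4 in Cpt2PparaDKO against Control or against Cpt2KO, nor Slco1a1 in the second of these.

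Genes whose pattern over the 20 libraries lay closest to a member were ranked by the root mean square difference of log2 CPM, each gene centred on its own mean, among 9400 candidates. For Slco1a1 these were Cyp7b1 (0.60), Proz (0.62) and C6 (0.63), set against a spread of 1.32 for Slco1a1 itself, and Cyp7b1 and C6 are both on the list of male-predominant liver genes used below. The ranking included both female-pattern libraries and was not repeated without them. A gene low in those libraries can lie close to Slco1a1 for that alone, so the match is no separate evidence on sex. For Slco1a4 they were Cyp17a1 (0.67), Cdh1 (0.74) and Cbs (0.76), against a spread of 1.20. For Slco1b2 they included Tpcn1 (0.31) and Dhdh (0.31), against a spread of 0.70. For Abcg2 they were Acad11 (0.19), Tmem135 (0.22) and Creb3l3 (0.22), against a spread of 0.62. For Abcc4 they were Tagln2 (0.39), Ndrg1 (0.40) and Gfpt1 (0.40), against a spread of 0.74.

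Other uptake carriers of the Slco, Slc10 and Slc22 families are given by their counts. Of 14 tested of 23 listed, 1 higher and 2 lower were called in Cpt1DKO livers, 1 higher and 6 lower in Cpt2KO, 1 higher and 4 lower in TKO livers and 0 higher and 4 lower in Cpt2PparaDKO against Control, with median log2 fold changes of -0.25, -0.52, -0.41 and -0.42. Of all genes, 5.55%, 33.4%, 27.4% and 32.5% were called in either direction in these comparisons, and 24.4% in Cpt2PparaDKO against Cpt2KO. These shares are the background of this list and of those that follow. Slc22a5, the carnitine importer, was called higher in Cpt1DKO (0.70), Cpt2KO (1.62) and TKO (1.26) and lower in Cpt2PparaDKO (-0.74). Slc22a30 was called lower in each of the 4 mutant groups, at -2.03, -3.61, -2.68 and -1.42, the last lost without both female-pattern libraries (-1.06, adjusted p = 0.0884). Slc22a7, an organic anion carrier, was called lower in Cpt1DKO (-2.84), Cpt2KO (-3.65) and Cpt2PparaDKO (-2.61). Slc10a1, the sodium-dependent bile salt importer, was called lower in Cpt2KO (-1.69), TKO (-1.34) and Cpt2PparaDKO (-1.94). In Cpt2PparaDKO against Cpt2KO 3 higher and 1 lower were called, with Slc22a30 at 2.19, the prostaglandin carrier Slco2a1 at 1.14 and Slc22a5 at -2.36.

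The other efflux pumps listed include the bile salt and sterol exporters. Of 14 tested of 15 listed, 0 higher and 2 lower were called in Cpt1DKO, 1 higher and 8 lower in Cpt2KO, 1 higher and 8 lower in TKO livers and 4 higher and 6 lower in Cpt2PparaDKO against Control, with median log2 fold changes of -0.29, -0.64, -0.69 and -0.37. Abcb11, the canalicular bile salt export pump, was called lower in Cpt1DKO (-1.28), Cpt2KO (-3.68), TKO (-3.04) and Cpt2PparaDKO (-1.29). Atp8b1, an aminophospholipid flippase, was called lower in Cpt1DKO (-0.59), Cpt2KO (-1.09) and TKO (-0.71). Abcg5, which with Abcg8 exports sterols, was called lower in Cpt2KO (-1.14), TKO (-1.13) and Cpt2PparaDKO (-1.76), and Abcg8 lower in the same groups (-0.89, -0.79 and -1.64). Abcc12 was called higher in Cpt2KO (2.65), TKO (3.27) and Cpt2PparaDKO (5.18), and Abcc1, a conjugate exporter, higher in Cpt2PparaDKO (1.18). Between Cpt2PparaDKO and Cpt2KO 6 higher and 3 lower were called, with Abcc12 at 2.53, Abcb11 at 2.39, the cation exporter Slc47a1 at -0.81 and Abcg8 at -0.74, the last lost without both female-pattern libraries (-0.64, adjusted p = 0.0906).

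Of 17 listed regulators of transporter genes, 0 higher and 0 lower were called in Cpt1DKO, 1 higher and 5 lower in Cpt2KO, 0 higher and 5 lower in TKO livers and 0 higher and 8 lower in Cpt2PparaDKO against Control, with median log2 fold changes of -0.23, -0.17, -0.26 and -0.54. Nr0b2, which encodes the repressor SHP and is a target of FXR, was called lower in Cpt2KO (-4.96), TKO (-4.00) and Cpt2PparaDKO (-1.89), the last lost without both female-pattern libraries (-1.60, adjusted p = 0.106). Ahr, the aryl hydrocarbon receptor, was called lower in Cpt2KO (-1.16) and TKO (-0.76), and Keap1, the inhibitor of NRF2, higher in Cpt2KO (0.43). Foxa2 was called lower in TKO (-0.96) and in Cpt2KO (-0.76), the last lost without both female-pattern libraries (-0.62, adjusted p = 0.108). Nr1i3, which encodes CAR, was called lower in Cpt2PparaDKO against Control (-1.41) and against Cpt2KO (-1.41). Set against Cpt2KO, Cpt2PparaDKO had 3 higher and 5 lower, with Nr0b2 at 3.07, Ahr at 1.22 and Nr1i2, which encodes PXR, at -1.11.

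Of 12 listed targets of CAR and PXR, 0 higher and 1 lower were called in Cpt1DKO, 1 higher and 7 lower in Cpt2KO, 0 higher and 6 lower in TKO livers and 0 higher and 8 lower in Cpt2PparaDKO against Control, with medians of -0.52, -1.57, -0.96 and -0.98. Cyp3a11, the main drug-metabolising member of its family, was called lower in Cpt1DKO (-1.36), Cpt2KO (-1.81), TKO (-1.72) and Cpt2PparaDKO (-2.30), and Aldh1a1 lower in Cpt2KO (-1.20), TKO (-0.95) and Cpt2PparaDKO (-1.88). Cyp2c37 was called lower in Cpt2KO (-2.99), TKO (-2.51) and Cpt2PparaDKO (-1.59), and Cyp2c29 in Cpt2KO (-2.28) and TKO (-2.17). Ugt1a1, which conjugates bilirubin, was called lower in Cpt2PparaDKO (-0.66) and higher in Cpt2KO (0.65), the last lost without both female-pattern libraries (0.42, adjusted p = 0.0610). In Cpt2PparaDKO against Cpt2KO 5 higher and 3 lower were called, with Cyp2b10 at 4.74, Cyp2c29 at 2.30, Por at -1.52 and Ugt1a1 at -1.31. The Cyp2b10 call was lost without both female-pattern libraries (3.16, adjusted p = 0.0528). Paralogs of the Cyp2c family share sequence, so their values are uncertain.

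Of 13 listed targets of NRF2, 0 higher and 1 lower were called in Cpt1DKO, 4 higher and 3 lower in Cpt2KO, 6 higher and 1 lower in TKO livers and 7 higher and 0 lower in Cpt2PparaDKO against Control, with medians of -0.09, 0.42, 0.48 and 0.89. Gsta1, a glutathione transferase with close paralogs, was called higher in Cpt2KO (3.98), TKO (4.83) and Cpt2PparaDKO (7.21). Gsta4, of the same family, was called lower in Cpt1DKO (-1.28), Cpt2KO (-1.81) and TKO (-1.03) and higher in Cpt2PparaDKO (0.78), and Ces1g lower in Cpt2KO (-1.34). Slc7a11, the cystine importer, had 0 counts over the 4 Control libraries and was at least 59.4-fold higher in Cpt2KO, at least 51.9-fold in TKO and at least 53.4-fold in Cpt2PparaDKO, taking 3 counts over the Control group as the floor. Set against Cpt2KO, Cpt2PparaDKO had 4 higher and 1 lower, with Gsta4 at 2.59, Gsta1 at 3.23 and Hmox1 at -1.44.

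Of 11 listed male-predominant genes, 0 higher and 0 lower were called in Cpt1DKO, 0 higher and 3 lower in Cpt2KO, 0 higher and 0 lower in TKO livers and 0 higher and 2 lower in Cpt2PparaDKO against Control, with medians of -0.41, -1.33, -0.76 and -0.81. With both female-pattern libraries left out, these counts were 0 higher and 2 lower, 2 higher and 7 lower, 2 higher and 4 lower, and 0 higher and 4 lower. Over all genes 1581, 5692, 4980 and 4421 were then called, against 869, 5228, 4287 and 5091 with all libraries. Selenbp2 (-3.47) and the oxysterol hydroxylase Cyp7b1 (-1.90) were called lower in Cpt2KO, and Cyp4a12b (-2.64) and Cyp2d9 (-2.24) in Cpt2PparaDKO. In Cpt2PparaDKO against Cpt2KO 0 higher and 2 lower were called, with Cyp4a12b at -2.80 and Cyp4a12a at -2.53. Of 10 listed female-predominant genes 4 were tested, and 1 higher and 0 lower were called in Cpt2KO, 0 higher and 1 lower in TKO and 1 higher and 0 lower in Cpt2PparaDKO, and 0 in Cpt1DKO. Cyp2a4 was the gene called higher in Cpt2KO (5.18) and Cpt2PparaDKO (8.83), the groups with a female-pattern library. Without both such libraries its values were 3.17 (SE 1.20, adjusted p = 0.0535), no longer called, in Cpt2KO and 5.54 (SE 1.21, adjusted p = 0.00392) in Cpt2PparaDKO. Cux2 was called lower in TKO (-2.57). The part of sex in the results for Slco1a1 and Slco1a4 was not tested beyond leaving out the female-pattern libraries.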

How the data were processed

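RNA from flash-frozen livers was sequenced in 20 libraries, per the labels' protocols. The authors deposited whole-number counts per gene and FPKM per gene. The submitters' processing notes name HISAT2 and GRCm39 (mm39). No source used here gives the counter, the strand setting or the gene models, so reads of overlapping genes and of close paralogs (Slco1a1, Slco1a4 and related Slco1a genes, Abcb1a and Abcb1b) could be split wrongly. The authors' FPKM divide by gene length and by 1 total per library that is not the sum of the counts. The deposited tables of the authors' comparisons hold, per the file headers, log2 fold changes with adjusted p-values, and name no test; those of Cpt2PparaDKO against TKO and Cpt1DKO, and 240 further per-sample columns, were not used.

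Counts were filtered with filterByExpr (minimum count 10), scaled by TMM and tested with edgeR 4.0.16 (R 4.3.3) in 1 quasi-likelihood model of group over all 20 libraries, with robust dispersions and two-sided tests adjusted by Benjamini-Hochberg over 15669 genes. Standard errors were derived from the size of the log2 fold change and the F statistic. On simulated counts for Cpt2KO against Control over 15669 genes, 100 genes were changed by a log2 of 2 and 100 by 1, the rest left unchanged. Of these 87% and 51% were recovered, and 5.48% of all calls were false. The real comparison called 33.4% of genes, so these rates need not hold there. Alternatives were DESeq2 1.42.0, DESeq2's size factors in edgeR, no filter, fits on the groups compared, a replicate block, fits without each library and without both female-pattern libraries. The members and gene lists were chosen with earlier results of these data known. Members were named in each comparison that called them, and from each list up to 2 called genes each way with the largest change and a mean of at least 1 CPM, each then given for every mutant group that called it against Control. Genes of like pattern were sought for members whose highest group mean was at least 2 times the lowest, among protein-coding genes averaging 5 CPM or more. The result for 1 such gene is not reported here. Promoter sequences are from RefSeq on GRCm38.p6.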

Additional observations from a re-analysis of the deposited data

Results flagged for a closer look

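Of 50 gene-by-group sets of 4 libraries, 4 had a library far from the other 3, measured as its gap to the nearest library over the range of the group; chance alone gives about 1 in 20, here 2.5. Abcc4 in Cpt2PparaDKO replicate 4 was at 30.73 CPM, and the others at 5.528 to 7.152 (gap over range 0.936). Abcb1a in the same library was at 23.05 CPM, and the others at 3.343 to 4.47 (0.943). Abcb1a in Cpt2KO replicate 3 was at 10.75 CPM, and the others at 3.402 to 4.582 (0.839). These 3 values belong to the 2 female-pattern libraries. Slco1a4 in TKO replicate 2, a male-pattern library, was at 64.9 CPM, and the others at 21.69 to 28.36 (0.846).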

How the results depend on the processing

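Of 90 gene-by-comparison results, 25 were called under some setting, and 0 of these changed direction. Of the 65 called in no setting, 20 changed direction in some fit. A call itself favours a steady direction, so the 0 is no separate check. The 366 refitted values were of the 25 results called under some setting and left out the 65. Of the 366, 196 were of results called with all libraries, of which 149 kept their call and 47 lost it. The other 170 were of results not called with all libraries, of which 20 gained a call. Those results were included because some setting called them, so the 20 gives no rate of gain over all uncalled results. Without both female-pattern libraries the number of members called was 1 in Cpt1DKO against Control, 6 in Cpt2KO against Control (Slco1a1, Slco1a4, Slco1b2 and Slco2b1 lower, Abcb4 and Abcg2 higher), 1 in Cpt2KO against Cpt1DKO and 1 for the interaction. Over all genes, Cpt2KO against Control then had 5692 called, against 5228 of 15669 with all libraries. Cpt1DKO against Control then had 1581 called over all genes, Cpt2KO against Cpt1DKO 3227 and the interaction 973. With only the groups compared in the fit the number of members called was 2 in Cpt1DKO against Control, 2 in Cpt2PparaDKO against Cpt2KO and 1 for the interaction. Over all genes 1442, 2495 and 600 were called in these fits. Without a filter the number of members called was 1 in TKO against Control and 0 in TKO against Cpt1DKO. There 3663 and 554 of the 31344 genes with a count were called. DESeq2 gave 1 for the interaction. With 1 library left out the number of members called ranged from 3 to 5 in Cpt2KO against Control (5 without Cpt2KO replicate 3), from 0 to 1 in Cpt2KO against Cpt1DKO, from 1 to 2 in TKO against Control, from 0 to 1 in TKO against Cpt1DKO, from 2 to 3 in Cpt2PparaDKO against Control and from 3 to 4 in Cpt2PparaDKO against Cpt2KO. Over all genes the ranges in the same order were 4347 to 5183, 1192 to 2517, 3394 to 3785, 278 to 898, 4158 to 4876 and 2997 to 4075. Beyond the changes of library set or model named, the cause was not tested.

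With a replicate block, Slco1a1 lost its call in TKO against Control (adjusted p = 0.0711) and in Cpt2PparaDKO against Cpt2KO (adjusted p = 0.103). The 32 correlations between same-numbered libraries ran from -0.153 to 0.233, with 2 over 0.1. Libraries of different number were not correlated for reference, so these values cannot exclude a pairing by replicate number. Over all genes the count called in Cpt1DKO against Control was 869, and 1443 by DESeq2, 1442 with only these groups, 1581 without both female-pattern libraries and 288 (without Cpt1DKO replicate 1) to 1188 (without Cpt1DKO replicate 3) with 1 library left out. In TKO against Cpt1DKO it was 729, and 1266 by DESeq2, 1391 without both female-pattern libraries and 278 (without TKO replicate 1) to 898 (without Cpt1DKO replicate 2) with 1 left out. For the interaction it was 423, and 941 by DESeq2, 973 without both female-pattern libraries and 178 (without Cpt1DKO replicate 1) to 585 (without Cpt2KO replicate 1) with 1 left out. In Cpt2KO against Cpt1DKO it was 2212, and 1344 with only these groups, 3227 without both female-pattern libraries and 1192 (without Cpt2KO replicate 2) to 2517 (without Cpt2KO replicate 3) with 1 left out. In Cpt2PparaDKO against Cpt2KO it was 3822, and 2495 with only these groups and 4128 without both female-pattern libraries. In TKO against Cpt2KO it was 8, and 54 by DESeq2, 16 without both female-pattern libraries, 5 with a replicate block or only these groups and 3 to 10 with 1 left out. With only Cpt2PparaDKO and Control in the fit, 3 members were called as with all groups, but Slco1a4 gained its call and Slco1b2 lost its own (-0.99, adjusted p = 0.0814). Among the gene lists, leaving out both female-pattern libraries also gave 7 rather than 4 NRF2 targets called higher in Cpt2KO and 3 rather than 1 CAR and PXR targets called lower in Cpt1DKO, both against Control, and 9 rather than 6 other efflux pumps called higher in Cpt2PparaDKO against Cpt2KO. Abcb1a and Abcc4 rest on 52 to 131 and 37 to 94 counts per library in Cpt1DKO and Control, where their CPM had coefficients of variation of 34.6% and 39.5% (Abcb1a) and of 28.0% and 29.1% (Abcc4).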
